A study of Mus musculus with 8 samples.

Results

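The distal miR-379/miR-410 cluster is the run of microRNA genes at the far end of the imprinted Dlk1-Dio3 domain, and 38 of its mature microRNAs were followed here in mouse bone tissue and in a bone-forming cell line. The members were chosen by name from the miRNAs that lie in the cluster. Another 32 strands of the cluster are not members, and these summed to between 473 and 612 RPM in calvaria (RPM is the count divided by the library total and multiplied by 1000000). Each of the 38 had 1 row among the 1281 mature miRNAs of the deposited tables, and together they come from 30 precursor hairpins. The study is titled for miR-101a and bone accrual, and its small RNA libraries profile the miRNAs of 2 materials. One material is MC3T3-E1 sc4, a single subclone of a pre-osteoblast line from mouse calvaria. It was differentiated with ascorbic acid and β-glycerol phosphate, which start matrix deposition and mineralization. Samples were taken at days 0, 6, 10, 17 and 24. The sample titles call day 0 undifferentiated and the later days differentiated. RNA of 3 cultures was pooled for each day, so each day has 1 library. The other material is calvaria, the parietal and frontal bones of the skull vault, from C57BL/6 female mice 2 to 3 days old that carry Prrx1-Cre, a transgene in which a Prrx1 enhancer drives Cre in limb and craniofacial mesenchyme. All 3 calvaria libraries carry it, and the bones were briefly digested with collagenase and trypsin before RNA was taken. Whether the 3 came from different mice is not stated in the labels, and the spread among them may therefore be technical. In the comparison of the 2 materials the 5 MC3T3 days stood in as replicates of the cell line. The spread behind those p-values thus also holds time in culture and is not that of replicate cultures.

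miRNAs of the Dlk1-Dio3 domain are made from the chromosome inherited from the mother, together with the long non-coding RNAs Meg3, Rian and Mirg, while the protein-coding genes Dlk1, Rtl1 and Dio3 are expressed from the paternal copy. The hairpins are cut out of long transcripts that run through the cluster, and each hairpin can give a 5p and a 3p mature strand. A mature miRNA finds its target mRNAs mainly through its seed, bases 2 to 8. The cluster is specific to placental mammals, is abundant in embryo, placenta and brain, and is best known for synaptic members such as miR-134 and for metabolic adaptation of the newborn.

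In GRCm38/mm10 the 30 precursors lie on the plus strand of chr12:109709060-109743795, a stretch of 34.7 kb. Mir379 is the first and Mir410 the last. By the GENCODE annotation 20 of them lie outside any other annotated gene, and the last 10, from Mir382 to Mir410, lie within the long non-coding gene Mirg (chr12:109729764-109749460). Of these 10, 4 are exonic in at least one Mirg transcript, 3 overlap an exon in part and 3 are intronic. Upstream on the same chromosome follow Rian, which ends at 109661716, then Rtl1, Meg3 and Dlk1.

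RefSeq gave mature sequences for 35 of the 38 members. The 5 most abundant members in calvaria carry 5 different seeds, and are shown 5′ to 3′ with the seed in capitals.
mmu-miR-379-5p: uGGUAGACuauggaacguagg
mmu-miR-411-5p: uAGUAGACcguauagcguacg
mmu-miR-541-5p: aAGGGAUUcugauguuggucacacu
mmu-miR-381-3p: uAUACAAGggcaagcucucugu
mmu-miR-382-5p: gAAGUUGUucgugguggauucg
The 35 sequences hold 34 distinct seeds. Only AUGUAAC occurred in more than 1 member, in the 3p strands of the first 2 hairpins of the cluster, which are shown because they share it.
mmu-miR-379-3p: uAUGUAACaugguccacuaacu
mmu-miR-411-3p: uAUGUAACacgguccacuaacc
From the 5′ end of mmu-miR-379-3p to the same position of mmu-miR-411-3p the substitutions are U10C and U22C, both outside the seed. Other members resemble each other but differ within the seed, and 2 such pairs are shown.
mmu-miR-300-3p: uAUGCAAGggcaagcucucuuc
mmu-miR-381-3p: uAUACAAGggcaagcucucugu
mmu-miR-376a-3p: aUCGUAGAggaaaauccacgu
mmu-miR-376b-3p: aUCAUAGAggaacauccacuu
From mmu-miR-300-3p to mmu-miR-381-3p the substitutions are G4A, U21G and C22U. From mmu-miR-376a-3p to mmu-miR-376b-3p they are G4A, A13C and G20U. In the table of 1679 mature mouse miRNAs, 27 of the 35 members have a seed that no other miRNA has. mmu-miR-379-5p shares its seed with miR-1193-5p of the same cluster, and mmu-miR-299a-3p with miR-299b-3p. Seeds were shared with miRNAs encoded elsewhere by 4 members: mmu-miR-411-5p (miR-7229-5p), mmu-miR-329-3p (miR-362-3p), mmu-miR-495-3p (miR-1192 and miR-12200-5p) and mmu-miR-410-3p (miR-344d-3p and miR-344e-3p). The members were 19 to 25 bases long, and 17 of the 35 (48.6%) began with U, against 42.8% of 269 other miRNAs with at least 10 counts in each calvaria library. Their median GC content was 45.5%, against 47.8% in those 269.

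All members but 1 were detected in calvaria, and the MC3T3 cells held only traces of the cluster. The members summed to 26543, 29592 and 23266 RPM in calvaria 1, 2 and 3, which is 2.65% ± 0.316 (SD, n = 3) of all miRNA counts. In MC3T3 cells they summed to 11.9, 25.4, 18.7, 9.11 and 9.45 RPM at days 0, 6, 10, 17 and 24. These MC3T3 sums rest on 48, 80, 58, 36 and 26 counts. The pooled rate in calvaria was 1843 times that in MC3T3 cells (exact 95% interval 1627 to 2096). Intervals here and below cover counting error only and leave out the spread between libraries. The reads also carry no molecular identifiers, so copies of one molecule cannot be recognised and are counted as separate reads. Of the 38 members, 37 were detected in each calvaria library, while 16, 19, 14, 12 and 9 were detected on the successive MC3T3 days. In these bulk samples fewer cells of a type and less RNA per cell cannot be told apart.

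**Figure D1:**
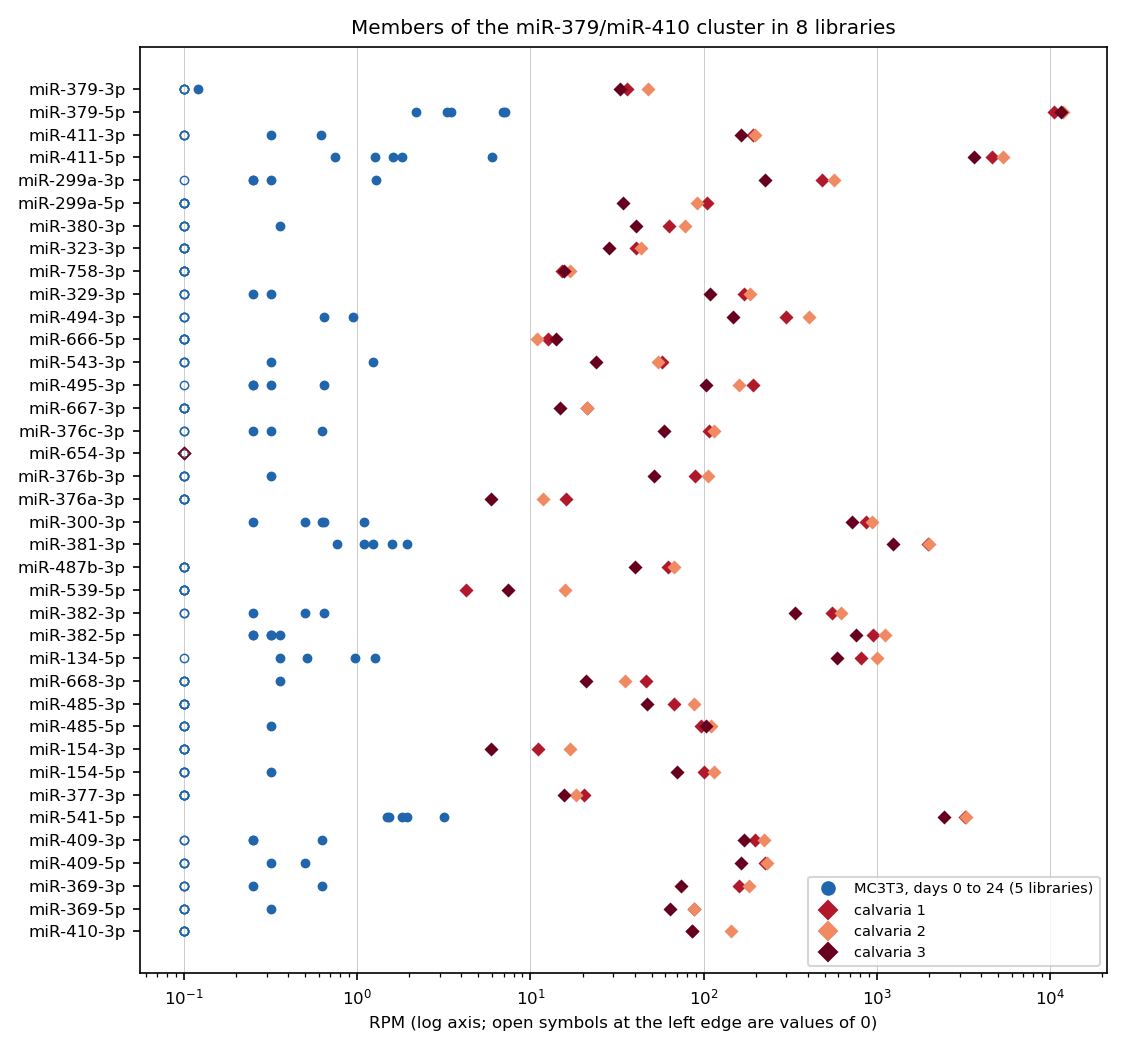
RPM of each of the 38 members (rows, in genomic order of their precursors) on a log axis in the 5 MC3T3 libraries (circles) and the 3 calvaria libraries (diamonds), with values of 0 drawn open at the left edge. For 37 members the 3 calvaria values lie to the right of all 5 MC3T3 values, and mmu-miR-654-3p is at 0 in all 8 libraries.

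In 37 of the 38 members the lowest calvaria value was above the highest MC3T3 value. The same held for 28.7% of the 891 miRNAs with a count. The edgeR quasi-likelihood test required at least 10 counts in at least 3 of the 8 libraries, and 34 members met this. They did so through their calvaria counts, so their direction was largely fixed by the filter, and the count of calls is a description. Each of the 34 was higher in calvaria (edgeR, adjusted p from 6.0e-10 to 2.2e-05), beside 35.5% of all 471 miRNAs tested. For a ratio of pooled rates, miRNAs at 0 in MC3T3 were set to a limit of 3 counts over the 5 libraries (0.177 RPM). The median log2 ratio was 9.68 over the 37 detected members, which include members that failed the filter. Over the tested miRNAs with a count in calvaria it was 0.26.

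mmu-miR-379-5p, the first miRNA of the cluster and one studied in hepatic lipid metabolism, was the most abundant member in both materials. Its levels were 10497, 11877 and 11616 RPM in calvaria 1, 2 and 3 (11330 ± 733, SD, n = 3), which ranked it 23 among all miRNAs there. In MC3T3 cells it had 14, 22, 22, 13 and 6 counts at days 0, 6, 10, 17 and 24, or 3.47, 6.97, 7.09, 3.30 and 2.19 RPM. The calvaria values lay close together and the MC3T3 values were all lower, with no overlap. The pooled ratio was 2522 (exact 95% interval 2018 to 3197), and edgeR gave a log2 difference of 11.07 ± 0.37 (SE, adjusted p = 1.8e-09). This single strand held 39.5, 40.1 and 49.9% of the member counts in calvaria 1, 2 and 3. In the pooled MC3T3 libraries it held 31.0% (exact 95% interval 25.3 to 37.2).

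The other members above 1000 RPM in calvaria were mmu-miR-411-5p, mmu-miR-541-5p and mmu-miR-381-3p. mmu-miR-411-5p, from the second hairpin, had 4615, 5331 and 3645 RPM in calvaria 1, 2 and 3, and 3, 19, 5, 5 and 5 counts on the successive MC3T3 days. Its fitted log2 difference was 10.81 ± 0.49 (SE, edgeR adjusted p = 1.3e-08). mmu-miR-541-5p, whose hairpin lies in an intron of Mirg, had 3212, 3261 and 2425 RPM in calvaria and 6, 10, 6, 6 and 5 counts in MC3T3 cells. For mmu-miR-541-5p the log2 difference was 10.34 ± 0.29 (SE, edgeR adjusted p = 6.0e-10). mmu-miR-381-3p had 1975, 2009 and 1239 RPM in calvaria and 5, 5, 6, 3 and 3 counts in MC3T3 cells, with a log2 difference of 10.13 ± 0.35 (SE, edgeR adjusted p = 1.9e-09). In each of these 3 members the third calvaria library was the lowest, and all calvaria values exceeded all MC3T3 values.

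The next members by level were mmu-miR-382-5p, mmu-miR-300-3p and mmu-miR-134-5p, all between 587 and 1115 RPM in calvaria. mmu-miR-382-5p had 948, 1115 and 755 RPM in calvaria 1, 2 and 3 and exactly 1 count on each MC3T3 day. Its pooled ratio of 3276 was the highest of the 15 members with more than 3 MC3T3 counts, but 5 counts leave it between 1403 and 10095. mmu-miR-300-3p, which differs from mmu-miR-381-3p at the 3 positions named above, had 862, 936 and 722 RPM, with 2, 2, 2, 1 and 3 MC3T3 counts. mmu-miR-134-5p, which restrains Limk1 translation in neuronal dendrites, had 814, 999.98 and 587 RPM, with 0, 4, 3, 2 and 1 MC3T3 counts. Their log2 differences were 11.23 ± 0.31, 10.15 ± 0.34 and 10.11 ± 0.46 in that order (SE), with edgeR adjusted p of 6.0e-10, 1.8e-09 and 1.3e-08.

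Another 5 members completed the 12 most abundant. mmu-miR-382-3p, the partner strand of mmu-miR-382-5p, had 551, 618 and 335 RPM in calvaria 1, 2 and 3 and 2, 0, 2, 1 and 0 MC3T3 counts. mmu-miR-299a-3p had 484, 566 and 227 RPM, with 1, 1, 4, 1 and 0 counts. mmu-miR-494-3p had 298, 405 and 148 RPM, with 0, 3, 2, 0 and 0 counts. In these 3 the third calvaria library was well below the other two, yet far above any MC3T3 library. mmu-miR-409-5p had 225, 231 and 165 RPM, with 2, 0, 1, 0 and 0 counts. Its partner mmu-miR-409-3p had 199, 222 and 171 RPM, with 1, 2, 0, 1 and 0 counts. The log2 differences of these 5 members lay between 9.27 ± 0.44 (mmu-miR-409-3p) and 10.32 ± 0.52 (mmu-miR-382-3p, SE), with edgeR adjusted p from 1.9e-08 to 2.3e-07.

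The pair with the shared seed AUGUAAC consists of the less used strands of their hairpins. mmu-miR-411-3p had 193, 197 and 165 RPM in calvaria 1, 2 and 3 and 3.5 MC3T3 counts, and mmu-miR-379-3p had 35.9, 48.0 and 32.8 RPM and 0.5 MC3T3 counts. Some of their deposited counts are fractional, how the fractions arose is not stated, and the split between these similar strands is therefore uncertain. Together they gave 229, 245 and 197 RPM in calvaria for this seed, with the third library the lowest.

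The neighbours mmu-miR-376c-3p, mmu-miR-376b-3p and mmu-miR-376a-3p come from hairpins within a short stretch in the middle of the cluster. mmu-miR-376c-3p had 107, 114 and 58.8 RPM in calvaria 1, 2 and 3, with 4 MC3T3 counts in all. mmu-miR-376b-3p had 89.6, 105 and 51.4 RPM, with 1 MC3T3 count. mmu-miR-376a-3p was lower, at 16.1, 11.9 and 5.96 RPM, below both neighbours in every calvaria library. In each of the 3 the third calvaria library was the lowest.

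Another 6 members ranged from 28.3 to 194 RPM in calvaria. mmu-miR-329-3p had 171, 184 and 109 RPM in calvaria 1, 2 and 3, with 2 MC3T3 counts, and mmu-miR-495-3p had 194, 160 and 103 RPM, with 5. mmu-miR-485-5p had 96.4, 111 and 103 RPM, with 1 MC3T3 count, and differed little between the libraries. mmu-miR-369-3p had 161, 183 and 73.7 RPM, with 3 MC3T3 counts, and mmu-miR-154-5p 101, 115 and 69.98 RPM, with 1. mmu-miR-323-3p had 40.6, 43.5 and 28.3 RPM and no MC3T3 count. Each of these 6 was higher in calvaria in edgeR, with log2 differences from 8.61 ± 0.44 (mmu-miR-495-3p) to 9.76 ± 0.48 (mmu-miR-485-5p, SE) and an adjusted p of at most 5.9e-06. The lowest tested members were mmu-miR-667-3p, mmu-miR-377-3p, mmu-miR-758-3p and mmu-miR-666-5p, between 10.9 and 21.3 RPM in every calvaria library and at 0 in MC3T3 cells.

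Levels in calvaria spanned a wide range among members of one cluster. By mean RPM 4 members were above 1000, 14 between 100 and 1000, 18 between 10 and 100, and 2 under 10. Among all miRNAs of calvaria 7 members stood within the 100 most abundant and 0 within the top 20. The 5 most abundant members held 80.05, 79.7 and 84.6% of the member counts in calvaria 1, 2 and 3. Abundant members were scattered along the cluster: mmu-miR-379-5p and mmu-miR-411-5p at its start, mmu-miR-300-3p and mmu-miR-381-3p in its middle, and mmu-miR-382-5p, mmu-miR-134-5p and mmu-miR-541-5p within Mirg.

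**Figure D2:**
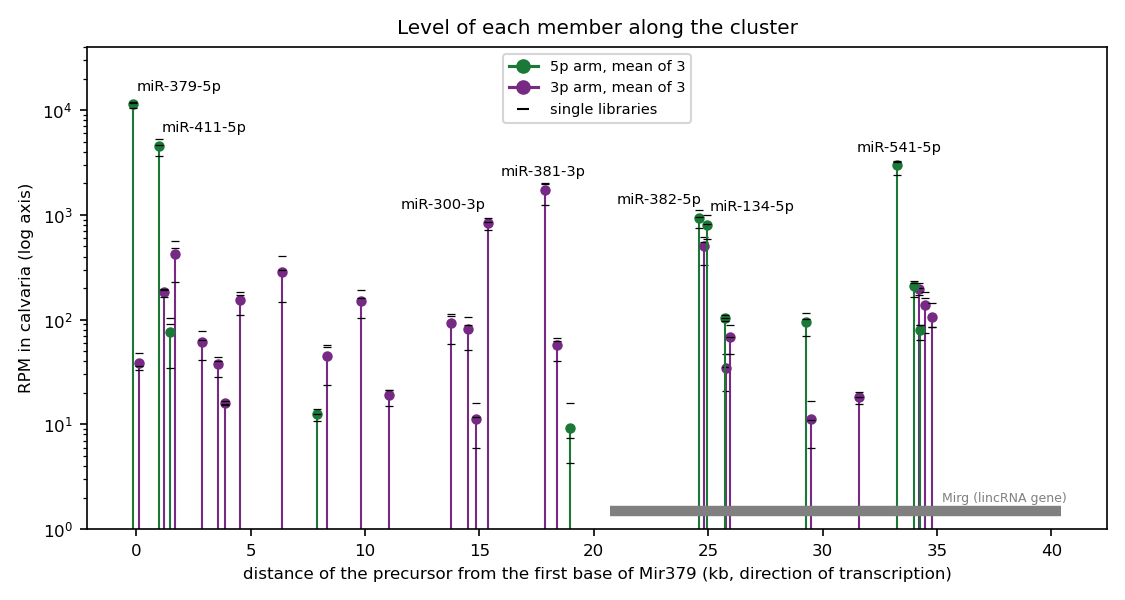
Mean RPM of each detected member in calvaria (log axis) against the distance of its precursor from the first base of Mir379 in kb, with 5p strands in green and 3p strands in purple drawn slightly apart, the 3 libraries as dashes, and Mirg as a grey bar. The 7 labelled members, from 800 to 11330 RPM, stand at the start, in the middle and near the end of the cluster.

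Low members in calvaria kept the separation from MC3T3 cells. In MC3T3 cells 12 detected members had 0 counts in all 5 libraries. Against the limit of 3 counts over these libraries they were from at least 58.5-fold (mmu-miR-539-5p) to at least 632-fold (mmu-miR-410-3p) higher in calvaria. mmu-miR-410-3p, the last member of the cluster, had 85.4, 144 and 85.6 RPM in calvaria 1, 2 and 3. Of the other members, 10 had up to 3 MC3T3 counts in all and 15 had more. Among those 15 the lowest pooled ratio was 131 (exact 95% interval 59.0 to 360), for mmu-miR-543-3p. It had 68, 110 and 32 counts in calvaria and 5, 0, 1, 0 and 0 in MC3T3 cells, so its MC3T3 counts came mostly from day 0. Across the 37 detected members the order in calvaria resembled the order in MC3T3 cells (Spearman rho 0.870 between mean calvaria RPM and pooled MC3T3 counts). That value is a description across members that share libraries, and most MC3T3 entries are single counts or 0 (120 of 190 are 0).

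The 4 members left out of the test had few counts in calvaria too. mmu-miR-654-3p had 0 counts in all 8 libraries, which allows up to 2.54, 1.48 and 2.23 RPM in calvaria 1, 2 and 3. mmu-miR-376a-3p had 19, 24 and 8 counts there, mmu-miR-154-3p had 13, 34 and 8, and mmu-miR-539-5p had 5, 32 and 10, all with 0 in MC3T3 cells. At this depth the level of mmu-miR-654-3p was not detectable in either material.

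During the MC3T3 course the cluster stayed at trace level. The summed level was highest at day 6 and lowest at days 17 and 24, and the intervals of days 6 (20.1 to 31.6 RPM) and 17 (6.40 to 12.6 RPM) did not overlap. With 1 library a day no 2 days could be compared by a test over samples. Only mmu-miR-379-5p reached 10 counts in at least 2 MC3T3 libraries and could be tested for a linear trend. Its fitted change over 24 days was -1.30 on the log2 scale (SE 0.69), which was not significant (edgeR adjusted p = 0.301, unadjusted p = 0.0974). The background was 2.3% of 391 miRNAs called with day in either direction. The day is that of the sample titles, and the matching column names give a day 3 lower, which leaves the slope unchanged. The names of the 4 later days also carry the mark veh, which the day 0 name lacks and whose meaning no source used here gives. The sample titles also call day 0 undifferentiated and the later days differentiated. In a difference between day 0 and the later days, differentiation and what the mark veh stands for cannot be told apart.

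Among the calvaria libraries the third held less of most members. Of the 34 members with at least 10 counts in each calvaria library, 29 were lowest in calvaria 3, against 46.2% of all 368 such miRNAs. The median ratio of calvaria 3 to the mean of calvaria 1 and 2 was 0.661 in these members and 0.946 in all 368. The ratio was below 1 in 32 members and ran from 0.350 (mmu-miR-299a-5p) to 1.20 (mmu-miR-666-5p). mmu-miR-379-5p did not share the lower level, with a ratio of 1.04, nor did mmu-miR-485-5p, at 0.992. Without mmu-miR-379-5p the members summed to 16046, 17715 and 11650 RPM. This count was chosen after the values had been seen, and with 1 library on one side it has no test.

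**Figure D3:**
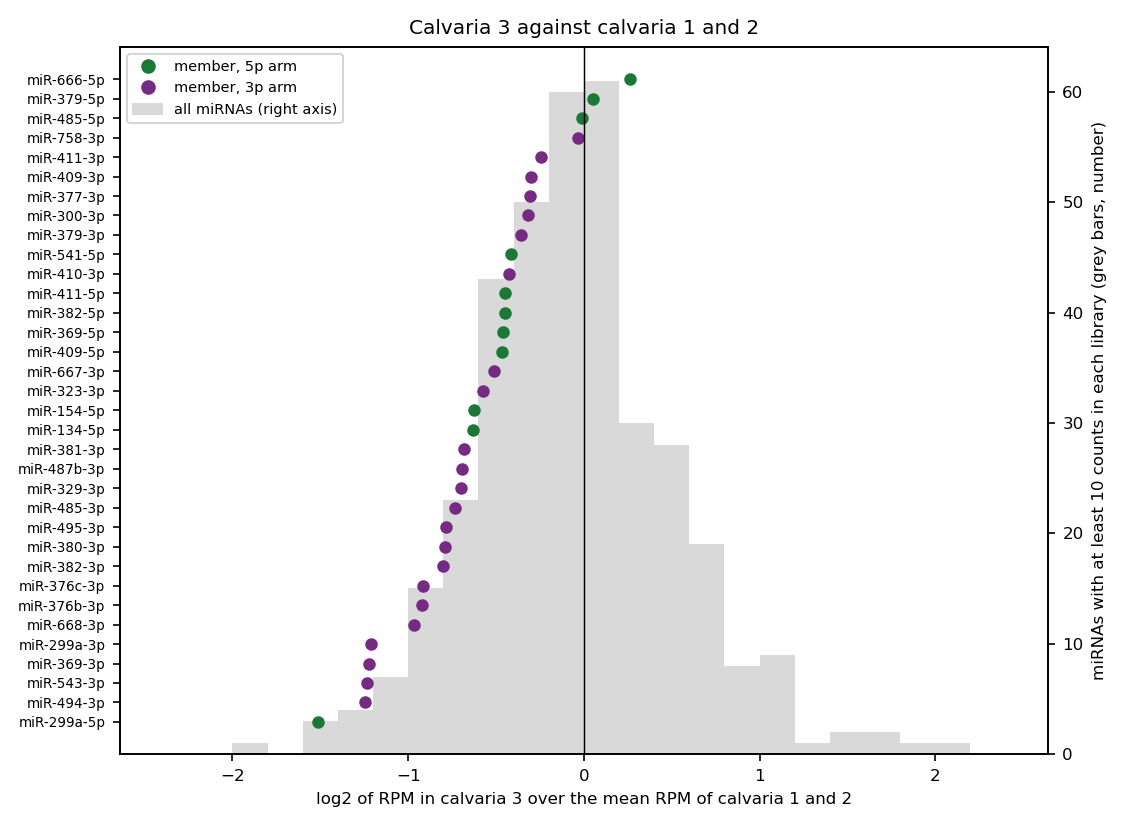
Log2 of the RPM in calvaria 3 over the mean of calvaria 1 and 2 for the 34 members with at least 10 counts in each library (points, green for 5p and purple for 3p strands, left axis), over the number of all 368 such miRNAs in each interval (grey bars, right axis). Of the 34 points 32 lie left of 0, and mmu-miR-379-5p and mmu-miR-666-5p lie right of it.

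The spread of single members was computed from the same calvaria values and is therefore no separate result. Among the 17 members with at least 100 counts in each calvaria library, the coefficient of variation was smallest for mmu-miR-379-5p (6.47%), mmu-miR-485-5p (6.97%) and mmu-miR-411-3p (9.64%). It was largest for mmu-miR-494-3p (45.5%), mmu-miR-299a-3p (41.6%) and mmu-miR-410-3p (32.3%). In mmu-miR-410-3p the odd library was calvaria 2, which was the highest, while in the other two calvaria 3 was the lowest. By strand, the median ratio of calvaria 3 to the mean of the other libraries was 0.732 for 11 5p members and 0.616 for 23 3p members. In all miRNAs that are not members it was 0.977 for 159 5p and 0.951 for 147 3p strands.

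Markers of other cell types moved between the same libraries, and their part in the result was not tested. The 4 cartilage miRNAs, led by the strands of miR-140, summed to 111611, 110887 and 61235 RPM in calvaria 1, 2 and 3, and to between 18218 and 28775 RPM in MC3T3 cells. The miR-126 strands of endothelium summed to 9028, 10749 and 20323 RPM, and to between 6.20 and 19.0 RPM in MC3T3 cells. Striated muscle miRNAs gave 368, 283 and 642 RPM in calvaria against 213 to 574 RPM in MC3T3 cells, and the list was mixed. miR-1a-3p and miR-133a-3p were higher in calvaria (log2 differences 1.99 and 2.99). miR-206-3p and miR-499-5p were lower there (-1.33 and -2.02), though not significantly (edgeR adjusted p = 0.149 and 0.0573). miR-208b-3p, at 0 in MC3T3 cells, had too few counts to be tested. Nervous system miRNAs gave 615, 693 and 647 RPM against 330 to 463 RPM, and only 2 of the 6 with a row reached 10 counts in calvaria. The tested ones, miR-9-5p and miR-128-3p, did not differ significantly between the materials (edgeR adjusted p = 0.109 and 0.141). miR-124-3p, at 0 in MC3T3 cells, had too few counts to be tested. Blood cell miRNAs gave 290, 329 and 426 RPM against 38.9 to 111 RPM, and epithelial ones 82.0, 73.6 and 78.2 RPM against 3.23 to 12.4 RPM. Of the blood cell miRNAs tested, miR-451a, miR-144-3p, miR-142-3p, miR-223-3p and miR-150-5p were higher in calvaria (log2 differences 4.21 to 8.13). miR-486-5p was lower there (-0.80). Only 2 of the 7 epithelial miRNAs reached 10 counts in calvaria. The tested ones, miR-200b-3p and miR-203-3p, were higher in calvaria (log2 differences 3.95 and 4.53). miR-205-5p had enough counts in MC3T3 cells for the day trend but too few for the test against calvaria. Mesenchymal miRNAs (miR-199a, miR-214, miR-143 and miR-145a) summed to high levels in both materials, at 131924 to 145904 RPM in calvaria and 130003 to 187906 RPM in MC3T3 cells. This list was mixed too. miR-143-3p and miR-145a-5p were lower in calvaria (log2 differences -1.10 and -1.28), and miR-199a-3p was higher (0.51, edgeR adjusted p = 0.0325). miR-199a-5p and miR-214-3p did not differ significantly (edgeR adjusted p = 0.952 and 0.222).

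Each hairpin used its strands in its own way. Both strands of all 30 precursors had a row, and 29 precursors had counts in calvaria. In all 3 calvaria libraries the 3p strand held more than 80% of the counts in 12 precursors and less than 20% in 7. The 7 are mir-379, mir-411, mir-666, mir-539, mir-134, mir-154 and mir-541. Another 8 stayed between 20 and 80% in every library: mir-329, mir-369, mir-376b, mir-380, mir-382, mir-409, mir-485 and mir-667. mir-376a and mir-377 crossed these bounds between libraries. The hairpins of Mir379, Mir541 and Mir409 are shown, with both mature strands in capitals, because they hold the most abundant member, the most one-sided 5p use and the most even use.
Mir379 (chr12:109709060-109709125): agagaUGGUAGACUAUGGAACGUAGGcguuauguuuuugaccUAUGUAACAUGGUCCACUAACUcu
Mir541 (chr12:109742409-109742498): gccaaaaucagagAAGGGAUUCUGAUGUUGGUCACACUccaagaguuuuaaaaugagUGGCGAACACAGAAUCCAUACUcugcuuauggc
Mir409 (chr12:109743158-109743236): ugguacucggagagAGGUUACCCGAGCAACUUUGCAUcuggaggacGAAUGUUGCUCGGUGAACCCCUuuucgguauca

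In mir-541 the 3p strand held 0.18% of the counts on average, and in mir-379 it held 0.34% ± 0.06 (SD, n = 3). In mir-409 it held 46.9, 49.0 and 50.9% in calvaria 1, 2 and 3, and each exact 95% interval reached both sides of 50% (the first from 42.5 to 51.4%). At the other end, mir-381 gave 99.98% from its 3p strand, and mir-494, mir-487b and mir-758 had no 5p count in any calvaria library. Among the 8 precursors with both strands as members, the mean 3p share was 3.97% in mir-411, 10.1% in mir-154, 34.4% in mir-382, 39.0% in mir-485, 61.9% in mir-369 and 85.1% in mir-299a, beside the values of mir-379 and mir-409. mmu-miR-485-5p represses the synaptic vesicle protein SV2A, and mmu-miR-369-3p is known for binding the AU-rich element of the TNF message. In mir-376a the member is the less used strand, since mmu-miR-376a-3p held 25.3, 18.8 and 18.2% of the counts. The miR-376 hairpins are known for A-to-I editing of their seeds in brain, which these tables do not resolve.

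**Figure D4:**
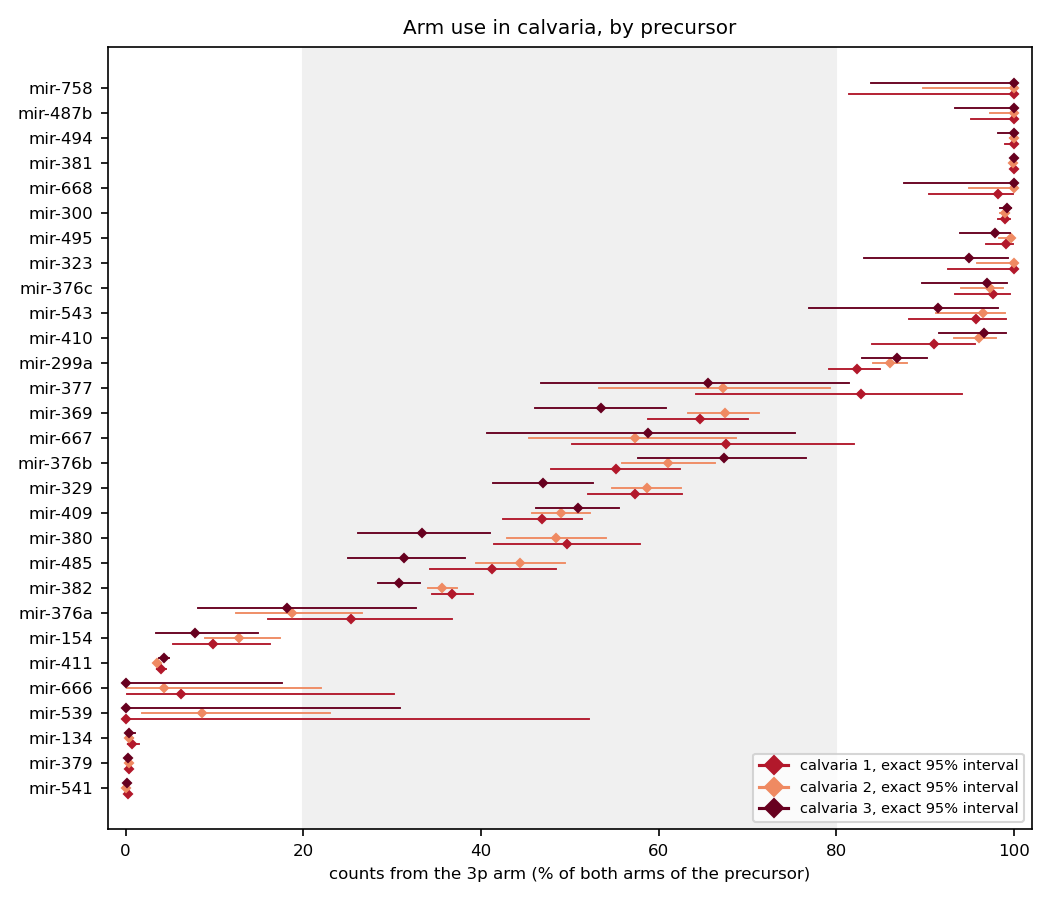
Share of counts from the 3p strand, in percent of both strands, for the 29 precursors with counts in calvaria, with exact 95% intervals for each of the 3 libraries and the range of 20 to 80% shaded. The precursors run from near 0% (mir-541, mir-379) to 100% (mir-494, mir-487b, mir-758), and 8 stay within the shaded range in every library.

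Strand shares shifted between calvaria libraries in some hairpins. In mir-380 the 3p strand held 49.7, 48.5 and 33.3% of counts in calvaria 1, 2 and 3, and the interval of the third (26.2 to 41.1%) lay below those of the first (41.4 to 57.9%) and the second (42.9 to 54.0%). In mir-382 the shares were 36.8, 35.7 and 30.7%, and the interval of calvaria 3 (28.4 to 33.2%) again lay below the other two. mir-485 gave 41.2, 44.4 and 31.3%, and mir-369 gave 64.6, 67.5 and 53.5%. Of 11 precursors of members with at least 10 counts on both strands in each library, 6 had their lowest 3p share in calvaria 3, against 35.6% of all 87 such precursors. In 4 of the 11, mir-299a, mir-376b, mir-409 and mir-411, the 3p share was highest in calvaria 3.

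Other miRNAs of the domain showed the same difference between materials. The proximal and Rtl1-antisense miRNAs lie upstream in the domain, and some of them are transcribed opposite Rtl1 and can cleave its mRNA. Of 26 such strands with a row, 25 were detected in calvaria, 18 were tested and 18 were higher there, beside 35.5% of all 471 miRNAs tested. The direction was again largely fixed by the filter. They summed to 22385, 24617 and 13914 RPM in calvaria and to between 0.75 and 4.44 RPM in MC3T3 cells. The most abundant were miR-127-3p (11708 ± 3722 RPM, SD, n = 3) and miR-434-5p (2475 ± 210 RPM). In calvaria 3 17 of 18 of these strands with at least 10 counts in each library were at their lowest, beside 46.2% of all 368 such miRNAs, and their median ratio to the other libraries was 0.612. The members exceeded this group 1.19, 1.20 and 1.67 times in calvaria 1, 2 and 3 and 4.33 to 12.1 times on the MC3T3 days, where the group had 42 counts in all. Of the 32 remaining strands of the distal cluster, 10 were tested and 10 were higher in calvaria, beside the same 35.5%. They too passed the filter through their calvaria counts. The highest of them were miR-329-5p (127 ± 3.2 RPM) and miR-380-5p (76.4 ± 10.5 RPM), and the 32 had 2 counts in MC3T3 cells.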

How the data were processed

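Per the labels' protocols, libraries of small RNA were prepared with an NEBNext kit. cutadapt 0.9.5, Bowtie 0.12.7 and the mm10 genome are named in the submitters' processing notes, and for the quantifier no source used here gives a name. The authors deposited estimated counts per mature strand and precursor, some of them fractional. Of 181 nonzero member counts 93.9% were whole within 0.005, and 5 members had fractions (mmu-miR-379-3p, mmu-miR-411-3p, mmu-miR-299a-3p, mmu-miR-300-3p, mmu-miR-381-3p), whose origin is not stated, so counts of these strands are less certain. The authors' deposited RPM equal the estimated count over the library total times 1000000, within 0.0127 RPM. Library totals were 2742368 to 4031962 counts in MC3T3 and 1183011 to 2023036 in calvaria, where 3 counts are 1.48 to 2.54 RPM. Between calvaria libraries, counts differed by more than sampling noise.

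Counts were summed per mature miRNA, rounded, and tested with the edgeR 4.0.16 quasi-likelihood test in R 4.3.3 (TMM factors, Benjamini-Hochberg adjustment over all miRNAs tested, threshold 0.05). The filter was 10 counts in 3 of 8 libraries for calvaria against MC3T3 and in 2 MC3T3 libraries for a linear day trend. DESeq2 1.42.0, limma 3.58.1 (log2(RPM + 1) and log2(RPM + 10)), other scalings and filters, and leaving out each library served as alternatives. The test scripts were first tested on simulated data. Changes were placed there in miRNAs well above the MC3T3 level of the members. For calvaria against MC3T3 they were also far smaller than the members' differences, so the range of the members was not covered. Shares carry exact Clopper-Pearson 95% intervals, single counts exact Poisson intervals, and ratios exact binomial intervals. Sequences are from RefSeq (GRCm38.p6) and gene annotation from GENCODE vM21, the authors' build. Named were the 12 members highest in calvaria, members with 10 counts in an MC3T3 library, members that failed the filter, the 3 largest and 3 smallest coefficients of variation, members sharing a seed, precursors with both strands as members or with 3p shares of 20 to 80%, and the 2 most abundant of each related list. The members and lists were chosen with earlier results of these data known, and the counts by calvaria 3 and by strand were added after seeing the data.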

Additional observations from a re-analysis of the deposited data

Results flagged for a closer look

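Within the 5 MC3T3 libraries 3 members had a single day far from the others, with a gap to the next value above 0.71 of the whole range (Dixon's 95% limit for 5 samples). mmu-miR-411-5p stood at 6.02 RPM at day 6, from 19 counts, and the next highest day was 1.82 RPM. mmu-miR-541-5p stood at 3.17 RPM at day 6, from 10 counts, with the next at 1.93 RPM. mmu-miR-299a-3p stood at 1.29 RPM at day 10, from 4 counts, with the next at 0.32 RPM. In each of the 3 the exact 95% interval of the high day overlapped that of the next highest: 3.63 to 9.40 against 0.592 to 4.25 RPM for mmu-miR-411-5p, 1.52 to 5.83 against 0.709 to 4.21 RPM for mmu-miR-541-5p, and 0.351 to 3.30 against 0.00802 to 1.77 RPM for mmu-miR-299a-3p. Of 13 groups tested in this way, the summed level and the 12 most abundant members, 3 were singled out. Chance gives about 1 in 20 groups for normally distributed values, which counts this low are not, so the number singled out has no known chance level here.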

How the results depend on the processing

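In the comparison of calvaria with MC3T3 and its 18 alternatives, 17 to 37 members were tested, and in all 638 member results calvaria was higher with an adjusted p of at most 0.00297. Members entered these tests through their calvaria counts, so their direction was largely fixed beforehand and its constancy is no sign of stability. A filter of 100 counts left 17 members, and 17 were higher (81 of 258 over all miRNAs). Over all miRNAs the split of higher against lower calls was 167 to 135 with TMM factors, 184 to 116 with DESeq2 size factors, 173 to 106 with library totals and 142 to 192 with upper quartile factors, and the median log2 difference over all miRNAs was 0.06, 0.23, 0.25 and -0.37 in that order. Calls with day over all miRNAs numbered 9 (91 with an unadjusted p under 0.05), 57 without day 0 and 17 with no filter. They numbered 0 in edgeR with library totals, in limma, and without day 6, 17 or 24, where 52 to 80 had an unadjusted p under 0.05. The day trend of mmu-miR-379-5p ran from -2.20 (without day 0, edgeR adjusted p = 0.0569) to -0.77 (without day 24, adjusted p = 0.739). With no filter 24 members entered the day test and 0 were called by edgeR, 2 had an unadjusted p under 0.05, and the lowest adjusted p was 0.123 (mmu-miR-543-3p). The mean sum in calvaria was 15137 RPM without mmu-miR-379-5p and 24220 on the same scale with TMM factors. With 100 counts in each calvaria library, 14 of 17 members were lowest in calvaria 3, and with TMM scaling 31 of 34. Bounds of 10 to 90% put 11 precursors in the mixed group in place of 8. No paired analysis was possible because the labels name no unit shared by the cell line and the calvaria samples. Depth limits the MC3T3 values, where 3 members reached 10 counts in any library.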
